A study of Mus musculus with 2 samples.

Results

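Antigen presentation by MHC class I and class II was followed through 10 genes, taken by name from the 24542 gene symbols of the deposited mm10 table. For class II they were the alpha chain H2-Aa, the beta chains H2-Ab1 and H2-Eb1, the invariant chain Cd74, the transactivator Ciita and the peptide exchange factors H2-DMa and H2-DMb1. For class I they were the heavy chains H2-K1 and H2-D1 and their shared light chain B2m. Reads were summed per gene symbol. All 10 genes had reads in every library and passed the filter on low counts.

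The tissue was remote left ventricle, cut free of scar and border, from male C57BL/6 mice sampled on day 7 after a lasting ligation of the proximal left anterior descending coronary artery. The NRK-2 KO group is labelled as knocked out for nicotinamide riboside kinase 2, the product of Nmrk2, a kinase of striated muscle that feeds NAD synthesis, and the control group consisted of littermates. Both groups carried the ligation, so no value below compares ligated with unligated hearts. The sources used here do not say how the gene was deleted, or in which cells. The labels list 1 sample per genotype, while the table holds 3 numbered libraries for each, called KO 1 to 3 and control 1 to 3 here. No label ties them to different animals. The p-values thus cover the spread between these libraries alone, and that spread may be technical.

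Class I molecules sit on nearly all nucleated cells and show them peptides cut by the proteasome in the cytosol, loaded in the endoplasmic reticulum on a heavy chain that needs B2m to reach the surface. Class II molecules are made mainly by macrophages, dendritic cells and B cells. Their alpha and beta chains assemble on the invariant chain, which is digested in endosomes until H2-M swaps its last fragment for an antigen peptide. Ciita does not bind DNA itself but switches on the class II genes together, through proteins on the X and Y boxes of their promoters, and interferon gamma induces it in many cell types. In the infarcted heart these genes are known mainly from resident and recruited leukocytes.

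The libraries held from 26975513 to 33086384 reads in KO and from 22377348 to 22831189 in control. The targeted gene went against a label: Nmrk2 had 808, 9 and 0 reads in the libraries labelled KO 1, 2 and 3, against 308, 270 and 118 reads in control 1, 2 and 3. KO 1 stands below for the library labelled KO 1. The markers listed for ventricular cardiomyocytes were abundant in all 6 libraries, with 9 of 9 detected in each. Other tissues also left reads. Of 5 lung markers, led by the surfactant gene Sftpc, the summed level was 0.518, 445 and 17.2 CPM in KO 1, 2 and 3, against 0.294 to 1.16 CPM in control. Here CPM means counts scaled by library total and TMM factor, as edgeR does. Of 8 B cell markers, all were highest in control 3. The atrial light chain Myl7 was at 127, 1.15 and 0.22 CPM in KO, against 204, 162 and 0 CPM in control.

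With all 6 libraries, none of the 10 genes passed the test. KO was compared with control by edgeR's quasi-likelihood test, with p-values adjusted by the Benjamini-Hochberg method over 14466 genes, and a gene is said to have risen or fallen only at an adjusted p under 0.05. Across all genes 3.7% passed, 2.61% being higher and 1.09% lower in KO, against 0 of the 10 antigen presentation genes. At an unadjusted p under 0.05 there were 3744 genes and again 0 of the 10. Fitted log2 fold changes of KO over control ran from 0.11 to 0.76 for the 7 class II genes, with a median of 0.52, and from 0.01 to 0.21 for the 3 class I genes, while the median of all genes was 0.01. Libraries of both genotypes overlapped for each of the 10, and across all genes tested 30.9% had library ranges that did not overlap. In every case control 1 was lowest and control 3 lay above at least 2 of the 3 KO libraries. In bulk tissue such as this, fewer cells of a type and less RNA per cell cannot be told apart.

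H2-Aa (chromosome 17, 34282751 to 34287771, mm10), the alpha chain of the I-A molecule, was at 99.6, 256 and 190 CPM in KO 1, 2 and 3, against 54.2, 63.6 and 236 CPM in control 1, 2 and 3. KO 2 was highest and control 3 came next, so the groups overlapped through a single control library. The log2 fold change was 0.63 with an SE of 0.62 (adjusted p = 0.562 by edgeR). H2-Ab1 (chromosome 17, 34263227 to 34269418), the beta chain that pairs with it, was at 77.8, 195 and 125 CPM in KO, against 35.7, 41.7 and 156 CPM in control (log2 fold change 0.76 ± 0.62 SE, edgeR adjusted p = 0.474). Its libraries stood in the same order, and its log2 fold change was the highest of the 10.

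H2-Eb1 (chromosome 17, 34305867 to 34316674) encodes the beta chain of the I-E molecule, which cannot form in C57BL/6 mice because their E alpha gene is defective. Its levels were 56.9, 158 and 114 CPM in KO, against 37.3, 37.5 and 138.5 CPM in control (log2 fold change 0.62 ± 0.60 SE, edgeR adjusted p = 0.551). The beta chain transcript was thus present in every library. The E alpha pseudogene H2-Ea-ps (chromosome 17, 34342212 to 34344645) had 0 reads in each of the 6 libraries, which allows up to 3 reads in each, counting error only.

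Cd74 (chromosome 18, 60803849 to 60812652), the invariant chain that blocks the groove of new class II molecules and guides them to endosomes, was at 211, 547 and 338 CPM in KO, against 117, 134 and 535 CPM in control. KO 2 and control 3 were again the highest libraries and nearly level with each other. The mean was 365 ± 170 CPM in KO and 262 ± 237 CPM in control (SD, n = 3 libraries each), with a log2 fold change of 0.48, an SE of 0.64 and an adjusted p = 0.677 by edgeR.

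The genes of the peptide exchange factor H2-M came at lower levels, with control 3 highest for H2-DMa and KO 2 highest for H2-DMb1. H2-DMa (chromosome 17, 34122832 to 34139101) was at 9.18, 16.8 and 12.1 CPM in KO, against 4.27, 5.92 and 18.7 CPM in control (log2 fold change 0.39 ± 0.56 SE, edgeR adjusted p = 0.696). H2-DMb1 (chromosome 17, 34153191 to 34160229) was at 9.70, 24.7 and 15.0 CPM in KO, against 5.44, 6.36 and 22.7 CPM in control (log2 fold change 0.52 ± 0.61 SE, edgeR adjusted p = 0.634). For both, control 1 and control 2 lay below all 3 KO libraries and control 3 above KO 1 and KO 3.

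Ciita (chromosome 16, 10480072 to 10527640) had the widest spread of the 10. It was at 11.3, 30.0 and 16.0 CPM in KO, against 5.49, 6.21 and 41.2 CPM in control (log2 fold change 0.11 ± 0.81 SE, edgeR adjusted p = 0.948). Control 3 alone was above every KO library and 7.49 times control 1. The mean was 19.1 ± 9.70 CPM in KO and 17.6 ± 20.4 CPM in control (SD, n = 3 libraries each).

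**Figure D1:**
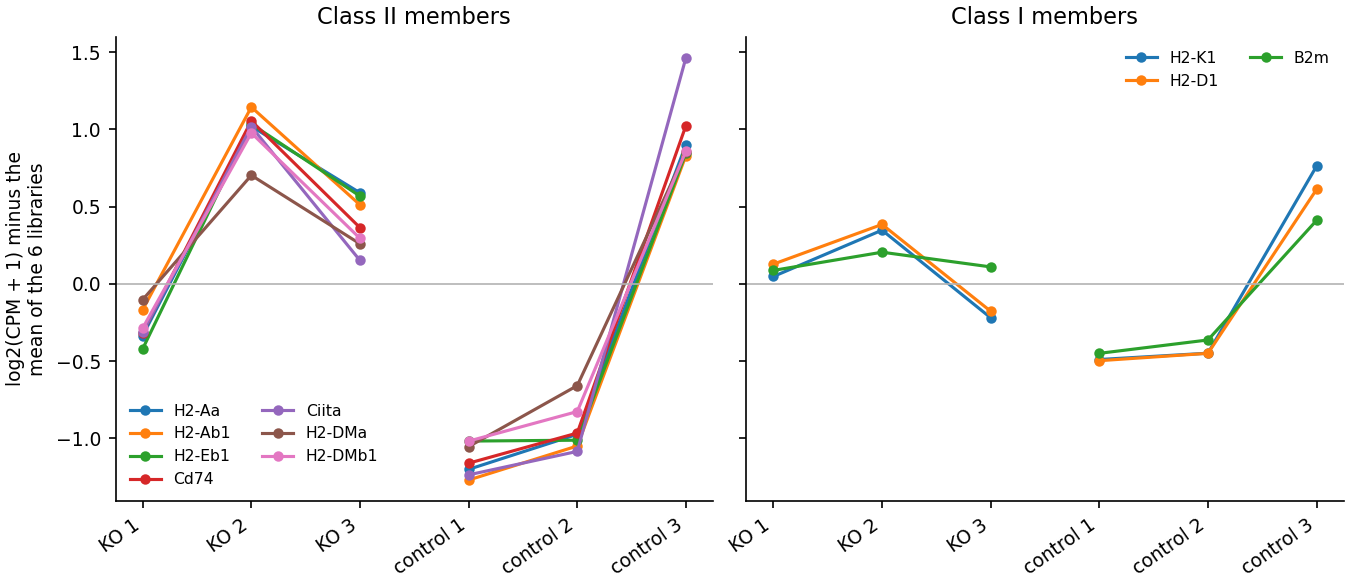
Level of each gene in each library, as log2(CPM + 1) minus the gene's mean over the 6 libraries, for the 7 class II genes (left panel) and the 3 class I genes (right panel). Lines join libraries of a genotype only to guide the eye. Control 1 and control 2 lie lowest for all 10 genes, KO 2 and control 3 highest, and Ciita stands above the other class II genes in control 3.

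The class I genes were more even. H2-K1 (chromosome 17, 33996012 to 34000347), a classical heavy chain, was at 326, 401 and 271 CPM in KO, against 224, 231 and 535 CPM in control (log2 fold change 0.01 ± 0.37 SE, edgeR adjusted p = 0.989). H2-D1 (chromosome 17, 35263094 to 35267497), the other heavy chain of this haplotype, was at 490, 585 and 396 CPM in KO, against 317, 328 and 685 CPM in control (log2 fold change 0.15 ± 0.33 SE, edgeR adjusted p = 0.818). For both, control 3 was the highest library. These heavy chains are near-identical to one another and to the H2-Q genes, and the sources used here do not say how shared reads were divided, so their counts are uncertain.

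B2m (chromosome 2, 122147687 to 122153082), the light chain of all class I molecules, was at 525, 570 and 533 CPM in KO, against 361, 384 and 657 CPM in control. The KO libraries lay within 1.09 times of each other, while the highest control library was 1.82 times the lowest. The mean was 543 ± 23.8 CPM in KO and 467 ± 165 CPM in control (SD, n = 3 libraries each), with a log2 fold change of 0.21, an SE of 0.25 and an adjusted p = 0.626 by edgeR.

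The class II genes had a wide spread between libraries. Within KO the highest library was 1.83 to 2.77 times the lowest for class II genes and 1.09 to 1.48 times for class I genes. Within control the same ratios were 3.71 to 7.49 for class II and 1.82 to 2.39 for class I. Among genes averaging 5 CPM or more the median ratio was 1.26 in KO and 1.36 in control, and 90% of these genes lay under 1.76 in KO and 2.14 in control. The class II genes therefore varied more than most genes in both genotypes, as a description of these libraries. In control the class I heavy chains H2-K1, at 2.39, and H2-D1, at 2.16, also lay above 2.14.

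On a scale per transcript length, the deposited FPKM, the genes kept a wide order of levels. B2m averaged 646 ± 50.7 FPKM in KO and 531 ± 243 FPKM in control (SD, n = 3 libraries each), the highest of the 10. The class I heavy chains and Cd74 came next, with H2-D1 at 289 ± 65.2 FPKM in KO and 251 ± 145 FPKM in control. Cd74 stood at 295 ± 148 FPKM in KO and 210 ± 209 FPKM in control, and H2-K1 at 207 ± 47.9 FPKM in KO and 198 ± 127 FPKM in control. These neighbours overlapped, apart from B2m and Cd74 in KO. H2-Aa, H2-Ab1 and H2-Eb1 followed at means of 175, 114 and 67.6 FPKM in KO and 111, 65.7 and 42.7 FPKM in control, each overlapping with the next higher gene in the order.

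The low end of the order held the accessory genes and the transactivator. H2-DMb1 averaged 13.2 FPKM in KO and 8.97 FPKM in control, below every H2-Eb1 library of the same genotype. H2-DMa averaged 7.85 FPKM in KO and 5.82 FPKM in control, and Ciita 3.57 FPKM in KO and 3.32 FPKM in control. H2-DMa overlapped with both H2-DMb1 and Ciita, although within each of the 6 libraries H2-DMb1 was above H2-DMa and H2-DMa above Ciita. Cd74 changed rank with the library. It was second to B2m in KO 2, KO 3 and control 3, and below both heavy chains in KO 1, control 1 and control 2.

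**Figure D2:**
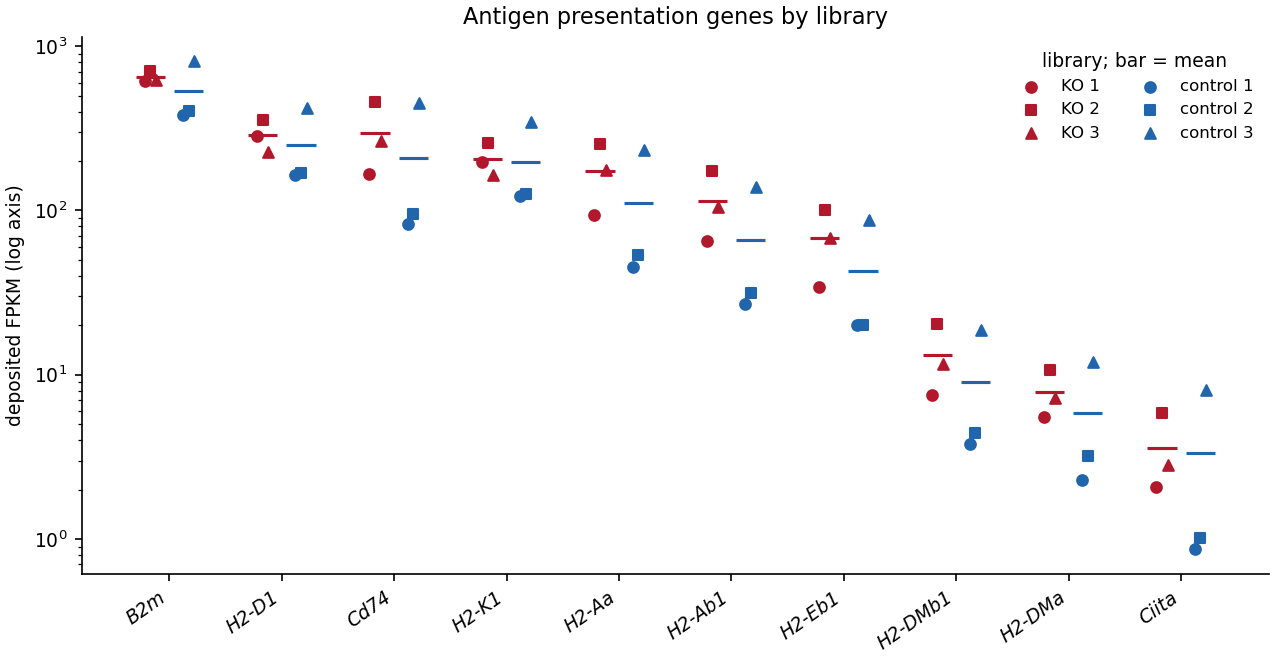
Deposited FPKM of each gene in each library on a log axis, KO in red and control in blue, with a bar at the mean of the 3 libraries of a genotype. Genes are ordered by their mean over all 6 libraries, from B2m to Ciita, and the control points of each gene split into control 3 above and control 1 and control 2 below.

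Ratios within a library removed most of this spread among the class II genes, which moved nearly in step. Of 14 FPKM ratios computed, H2-Aa over H2-Ab1 was 1.43, 1.47 and 1.69 in KO, against 1.69, 1.70 and 1.68 in control, although H2-Ab1 itself varied 2.65-fold in KO and 5.15-fold in control on the FPKM scale. Cd74 over H2-Aa was 1.78, 1.80 and 1.49 in KO, against 1.81, 1.78 and 1.93 in control. H2-DMa over H2-DMb1 was 0.733, 0.527 and 0.623 in KO, against 0.603, 0.722 and 0.641 in control. All 3 ratios overlapped between genotypes.

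For 2 of the 14 ratios the genotypes did not overlap. H2-DMb1 over H2-Ab1 was 0.116, 0.118 and 0.111 in KO, lower than 0.141, 0.141 and 0.135 in control. H2-K1 over H2-D1 was 0.702, 0.724 and 0.721 in KO, lower than 0.746, 0.743 and 0.825 in control, with the counting limit named above. H2-DMb1 is near-identical to another H2-M beta chain gene, H2-DMb2, so its counts are uncertain as well. With 3 libraries against 3, a two-sided exact permutation test cannot give a p under 0.1, so neither ratio could pass 0.05. Full separation of the genotypes gives just that 0.1 in this test, and 14 ratios were computed. For levels of single genes, 30.9% of all genes tested had library ranges that did not overlap. The sum of H2-Aa, H2-Ab1, H2-Eb1 and Cd74 over that of H2-K1, H2-D1 and B2m was 0.328, 0.745 and 0.606 in KO, against 0.263, 0.287 and 0.579 in control, so class II varied relative to class I as well.

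Promoter sequences were read from RefSeq (GRCm38.p6), where 7 of the 10 genes had an entry. The sequences below are the 250 bases before the annotated start, 5′ to 3′ on the strand of the gene, for 3 class II genes and for 2 class I genes. They are H2-Aa (chr17:34287824-34288073, minus strand), H2-Eb1 (chr17:34305617-34305866, plus strand), H2-DMb1 (chr17:34152941-34153190, plus strand), H2-K1 (chr17:34000334-34000583, minus strand) and B2m (chr2:122147437-122147686, plus strand). Capitals mark matches on either strand to 4 short motifs, chosen after the promoters had been seen.
H2-Aa: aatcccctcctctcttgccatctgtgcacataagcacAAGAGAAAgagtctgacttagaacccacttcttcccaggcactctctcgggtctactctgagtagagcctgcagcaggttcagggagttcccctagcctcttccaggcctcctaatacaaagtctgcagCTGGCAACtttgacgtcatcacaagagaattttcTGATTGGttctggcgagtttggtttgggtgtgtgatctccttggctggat
H2-Eb1: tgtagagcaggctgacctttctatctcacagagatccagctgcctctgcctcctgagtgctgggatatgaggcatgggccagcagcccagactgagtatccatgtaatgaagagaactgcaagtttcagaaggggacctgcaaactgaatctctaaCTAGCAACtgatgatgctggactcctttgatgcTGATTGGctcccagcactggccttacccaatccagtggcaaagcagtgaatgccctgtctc
H2-DMb1: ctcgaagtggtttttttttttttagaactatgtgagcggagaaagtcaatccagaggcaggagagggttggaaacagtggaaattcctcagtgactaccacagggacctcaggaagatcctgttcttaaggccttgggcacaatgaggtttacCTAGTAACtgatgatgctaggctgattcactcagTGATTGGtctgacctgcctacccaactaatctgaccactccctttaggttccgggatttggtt
H2-K1: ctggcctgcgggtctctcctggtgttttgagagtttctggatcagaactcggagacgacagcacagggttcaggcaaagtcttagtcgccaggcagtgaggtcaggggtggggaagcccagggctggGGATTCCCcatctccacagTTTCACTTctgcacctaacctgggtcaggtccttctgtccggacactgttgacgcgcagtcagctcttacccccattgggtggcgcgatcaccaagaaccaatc
B2m: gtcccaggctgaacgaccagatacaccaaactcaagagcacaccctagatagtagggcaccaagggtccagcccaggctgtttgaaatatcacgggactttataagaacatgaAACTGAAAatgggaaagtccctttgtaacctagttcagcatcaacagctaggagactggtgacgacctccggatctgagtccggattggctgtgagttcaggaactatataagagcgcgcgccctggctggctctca

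The motifs were CTNGNAAC, like the X box bound by the RFX complex, TGATTGG, like the Y box bound by NF-Y, GGATTCCC, like the enhancer A of class I genes bound by NF-kappa-B, and TTTCNNTT, like the element bound by interferon regulatory factors. No matches overlapped in the windows shown. H2-Aa, H2-Eb1 and H2-DMb1 each held an X-like match, at 84 to 77, 94 to 87 and 97 to 90 bases before the start, and a Y-like match closer to it, at 50 to 44, 61 to 55 and 63 to 57 bases. Among 32851 promoter windows of the same length, 10.9% held the X-like motif, 7.23% the Y-like motif and 0.819% both. H2-K1 held the enhancer A-like motif at 123 to 116 bases, present in 0.834% of windows, and the interferon-type motif at 104 to 97 bases, present in 21.3%. B2m held only the interferon-type motif among the 4, at 137 to 130 bases. H2-D1 held all 4 and the class II gene H2-DMa none, and neither of them is printed. The motifs were chosen after these promoters had been seen, so the shares over all windows are no test of enrichment. These matches describe letters and not binding, and the libraries hold no measure of binding.

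Leaving out control 3 changed the calls. Control 1 and control 2 were the lowest of the 6 libraries for all 10 genes, so every fit without control 3 had to point upward in KO. Such calls describe these libraries and give no separate support for a rise. Without control 3, 8 of the 10 genes rose in KO, against 11.6% of 14775 genes tested that were higher and 24.6% that passed in either direction. All 7 class II genes rose, with log2 fold changes from 1.32 for H2-DMa to 1.78 for H2-Ab1 and adjusted p-values from 0.0233 to 0.0417 by edgeR. The class I genes had smaller values. B2m rose with a log2 fold change of 0.54 (SE 0.13, adjusted p = 0.0312 by edgeR), while H2-K1 at 0.55 and H2-D1 at 0.61 did not pass (adjusted p = 0.0753 and 0.0612 by edgeR). Leaving out any other single library gave 0 of the 10, with adjusted p-values from 0.443 to 0.999.

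Control 3 and the other libraries that stood apart were then left out in pairs, a choice made after the data had been seen. Without KO 1, whose Nmrk2 reads went against its label, and control 3, the 7 class II genes rose and no class I gene did, with log2 fold changes from 1.5 for H2-DMa to 2.05 for H2-Ab1, against 6.47% of all genes. Without KO 2, which carried lung transcripts, and control 3, 5 of the 10 rose, against 6.85% of all genes. These were H2-Aa, H2-Ab1, Cd74, Ciita and B2m, with log2 fold changes of 1.29, 1.38, 1.12, 1.21 and 0.49, while H2-Eb1, H2-DMa and H2-DMb1 had 1.18, 1.05 and 1.06 and adjusted p-values of 0.0583 to 0.0589 by edgeR.

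**Figure D3:**
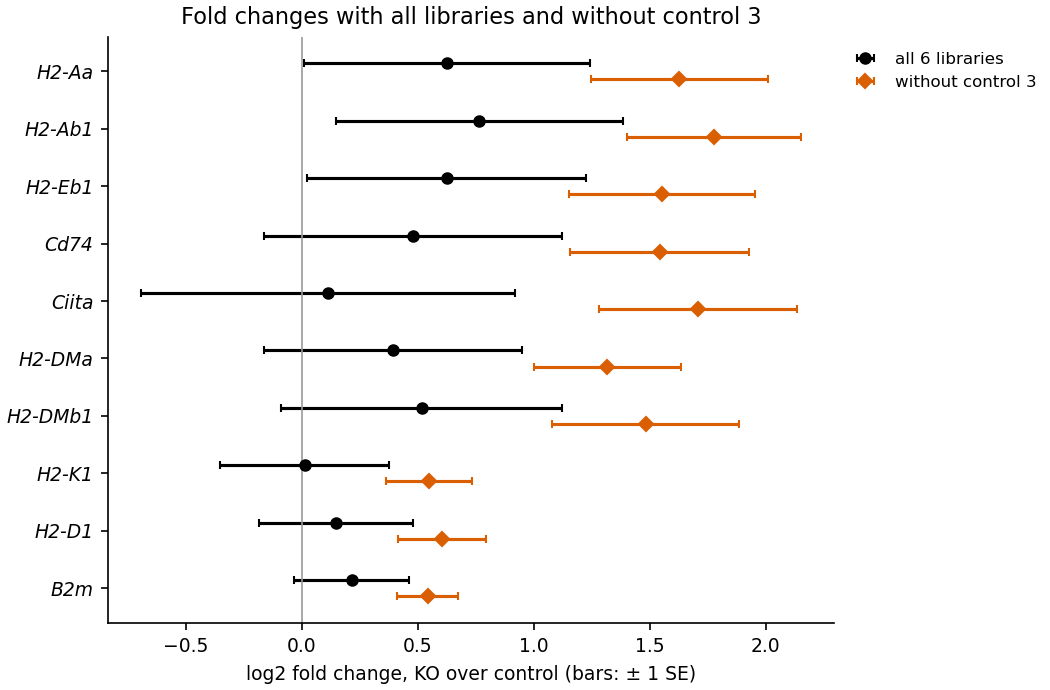
Log2 fold change of KO over control for each gene with all 6 libraries (black circles) and without control 3 (orange diamonds), with bars of 1 SE from edgeR. The 7 class II genes lie between 0.11 and 0.76 with all libraries and between 1.32 and 1.78 without control 3, and the 3 class I genes move less.

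The sums of leukocyte markers were highest in KO 2 and control 3 and lowest in control 1 and control 2, as for the class II genes. In both sums below KO 1 lay above KO 3, while for all 7 class II genes KO 1 lay below KO 3. The summed level of 8 pan-leukocyte markers, led by Lcp1, was 670, 984 and 541 CPM in KO, against 206, 334 and 972 CPM in control. Of these markers 0 of 8 passed with all libraries (median log2 fold change 0.57). Without control 3, 6 of 8 rose, against 11.6% of all genes tested. The summed level of 15 macrophage markers, led by Lyz2, was 2237, 3013 and 1975 CPM in KO, against 928, 1291 and 2643 CPM in control. Of these 0 of 15 passed the test (median 0.65). Without control 3, 10 rose and 2 fell, against 11.6% of all genes higher and 24.6% passing in either direction. Control 1 and control 2 gave the lowest sums, so calls without control 3 give no separate support for a rise. The 2 that fell were Cd163 and Lyve1. Every KO library lay below every control library for Cd163, Lyve1 and Folr2 (log2 fold changes -1.17, -1.52 and -1.13 with all libraries). Every KO library lay above every control library for Adgre1, C1qb and Fcgr1 (1.16, 0.79 and 1.06). Across all genes tested, 30.9% had library ranges that did not overlap. The part of leukocyte number in the class I and class II values was not tested.

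The leukocyte gene Ptprc, which encodes CD45, gave a scale within each library. H2-Ab1 over Ptprc, both in FPKM, was 2.99, 5.66 and 6.62 in KO, against 4.37, 3.32 and 3.04 in control. On this scale control 3 was the lowest of the control libraries and KO 1 lay below all of them. H2-K1 over Ptprc was 9.09, 8.47 and 10.4 in KO, against 19.9, 13.3 and 7.56 in control. Both ratios overlapped between genotypes.

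The marker lists of cells that carry class II differed in which library was high. The 10 dendritic cell markers, led by Itgax, summed to 52.2, 124 and 56.5 CPM in KO, against 32.4, 31.2 and 109 CPM in control, with KO 2 and control 3 high as for the class II genes. The 8 B cell markers, led by Ms4a1, summed to 11.4, 68.6 and 10.8 CPM in KO, against 7.65, 4.77 and 299 CPM in control, so that control 3 stood far above the rest. In control 2, 3 of these 8 markers had no reads, and in KO 3, 1 had none. Neither list had a gene past the test (medians 0.47 and -1.86). Without control 3, 2 dendritic and 0 B cell markers rose, against 11.6% of all genes tested. The part of B cells in the control 3 values was not tested.

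The remaining lists, given by summed level and median log2 fold change, had 0 genes past the test with all libraries, except for fibroblast markers. Monocyte markers summed to 118 to 763 CPM in KO and 31.8 to 225 CPM in control over 6 genes (median -0.02). Chil3, the most abundant of them, made up 542 CPM of the sum in KO 2, the library with lung transcripts, and 4 of the 6 genes were highest in control 3. T cell markers, led by Cd4, summed to 8.08 to 19.4 CPM in KO and 5.10 to 19.2 CPM in control over 8 genes (median -0.38). Endothelial markers, led by Kdr, of cells that also carry class I, summed to 1184 to 1489 CPM in KO and 1137 to 1523 CPM in control over 8 genes (median 0.05). Fibroblast markers, led by Col3a1, summed to 24364 to 31855 CPM in KO and 7582 to 16649 CPM in control, and of 8 genes 1 rose, the matrix protein gene Postn, and 1 fell, the actin-severing gene Gsn (median 0.99). Ventricular cardiomyocyte markers, led by Ttn, summed to 34842 to 54128 CPM in KO and 59114 to 93836 CPM in control over 9 genes (median -0.99). Atrial markers summed to 2356 to 3023 CPM in KO and 110 to 928 CPM in control, led by Nppa, and 4 of 5 could be tested (median -0.51). Nppa alone stood at 2417, 2348 and 3020 CPM in KO, against 442, 571 and 108 CPM in control. Myl4 and Sln, like Myl7, were instead high in KO 1, control 1 and control 2 and low in the other libraries. Myl4 was at 315, 6.24 and 2.52 CPM in KO, against 204, 176 and 2.31 CPM in control. Bmp10 had 0 reads in each library. Lung markers had 2 of 5 genes that could be tested (median 6.50).

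**Figure D4:**
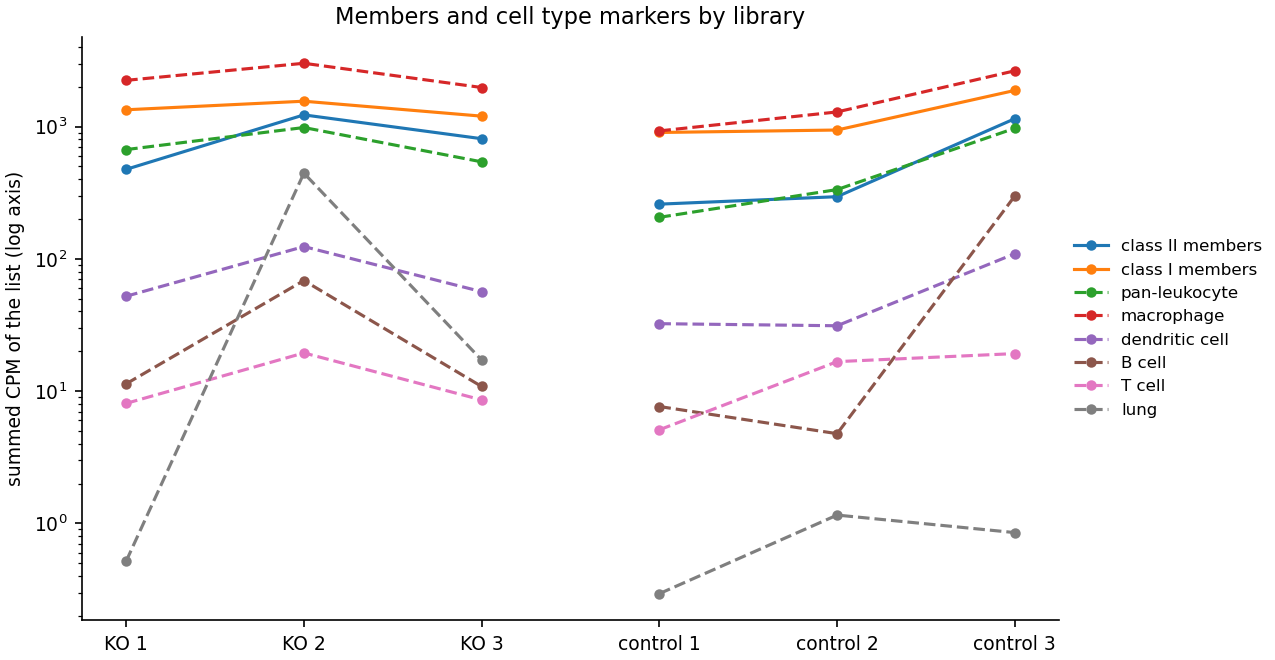
Summed CPM of the class II and class I genes (solid lines) and of 6 marker lists (dashed lines) in each library, on a log axis. The pan-leukocyte, macrophage and dendritic cell sums are high in KO 2 and control 3 as the class II sum is. The B cell sum reaches 299 CPM in control 3, and the lung sum reaches 445 CPM in KO 2.

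Further class II genes of the H2-O and H2-M factors were read next. H2-Ob, the beta chain of H2-O, an inhibitor of H2-M that is known chiefly from B cells, was at 2.55, 11.2 and 3.9 CPM in KO, against 1.86, 2.31 and 33.2 CPM in control (log2 fold change -1.08 ± 1.15 SE, edgeR adjusted p = 0.595). H2-DMb2, the other H2-M beta chain gene, was at 1.31, 6.99 and 1.86 CPM in KO, against 0.882, 1.25 and 21.7 CPM in control (log2 fold change -1.23 ± 1.26 SE, edgeR adjusted p = 0.579). Both genes were far higher in control 3 than elsewhere. On the FPKM scale, H2-DMb2 over H2-DMb1 was 0.217, 0.463 and 0.201 in KO, against 0.257, 0.317 and 1.57 in control, and H2-Ob over H2-Ab1 was 0.0146, 0.0258 and 0.0139 in KO, against 0.0228, 0.0247 and 0.0948 in control. The H2-M beta chain genes are near-identical, so their shares are uncertain.

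Ciita reads were also split by annotated start, since the gene is known to start from separate promoters in dendritic cells and macrophages, in B cells, and in cells given interferon gamma. The start at 10480072 on chromosome 16, shared by variants 1, 4 and 5, had 321, 896 and 431 reads in KO, against 112, 84 and 594 reads in control. The start at 10488178, that of variant 2, had 7, 138 and 7 reads in KO, against 0, 45 and 420 reads in control. Variant 2 made up 2.13%, 12.9% and 1.60% of Ciita reads in KO, against 0%, 34.9% and 41.4% in control. The start at 10489781, that of variant 3, had 0, 37 and 0 reads in KO, against 0, 0 and 1 in control.

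Control 3 held most of the variant 2 reads, KO 2 came next, and these were the libraries with the highest summed B cell markers. Control 2 had the lowest B cell sum, while variant 2 made up 34.9% of its few Ciita reads. The part of B cells in the variant 2 reads was not tested. Ciita over H2-Ab1 in FPKM was 0.0317, 0.0337 and 0.0268 in KO, against 0.0322, 0.0322 and 0.0582 in control, so control 3 stood apart for the gene as a whole too. The sources used here do not say how reads shared by isoforms were divided, and these starts are less certain than the gene sums. Within the first start, variant 4 had 170, 715 and 0 reads in KO, against 0, 80 and 252 in control. Variant 5 of the same start had 3, 77 and 431 reads in KO, against 112, 3 and 13 in control. Such jumps leave the split by isoform, and with it the variant 2 shares, uncertain.

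**Figure D5:**
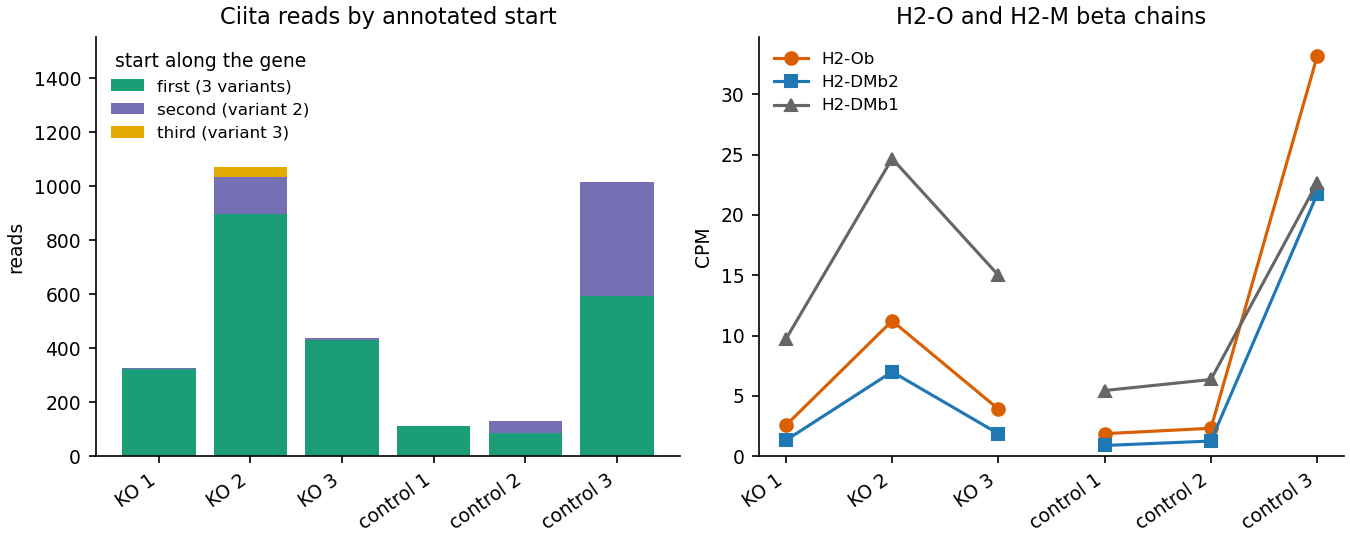
Left panel, Ciita reads in each library by annotated start, stacked. Right panel, CPM of H2-Ob, H2-DMb2 and H2-DMb1 in each library, with lines joining libraries of a genotype. Variant 2 holds 420 of the Ciita reads of control 3 and 138 of KO 2, and H2-Ob and H2-DMb2 are highest in control 3.

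Of 13 measured genes of the class II pathway outside the 10, 0 rose and 0 fell (median log2 fold change 0.38). Without control 3, 7 rose, against 11.6% of all genes tested. As for the 10 genes, such calls give no separate support for a rise. Ctss, cathepsin S, which cuts the last part of the invariant chain from class II in many presenting cells, was at 297, 403 and 213 CPM in KO, against 46.2, 87.4 and 234 CPM in control (log2 fold change 1.31 ± 0.57 SE, edgeR adjusted p = 0.208). Its control 3 level exceeded KO 3. The costimulator Cd86 was at 9.35, 11.6 and 14.6 CPM in KO, against 4.76, 7.56 and 12.2 CPM in control (log2 fold change 0.53, adjusted p = 0.391 by edgeR).

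Genes of the proteins that bind class II promoters gave no call with all libraries. Of 7 genes 0 rose and 0 fell (median log2 fold change -0.02). Without control 3, 1 rose and 1 fell, while 24.6% of all genes passed in either direction. Nfyc, a subunit of NF-Y, was at 28.8, 25.4 and 26.6 CPM in KO, against 41.9, 47.8 and 31.1 CPM in control (log2 fold change -0.58 ± 0.17 SE, edgeR adjusted p = 0.0995). The RFX subunit gene Rfxap had a log2 fold change of -0.52, and the NF-Y subunit genes Nfya and Nfyb had 0.39 and 0.24 (adjusted p = 0.126, 0.215 and 0.301 by edgeR). For Nfyc all 3 control libraries lay above the KO libraries, control 3 being the closest.

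Of 14 class I pathway genes 0 rose and 1 fell (median log2 fold change 0.03). The gene that fell was Psme1, the alpha subunit of the PA28 proteasome activator, at 67.0, 61.6 and 63.6 CPM in KO, against 101, 103 and 94.4 CPM in control (log2 fold change -0.63 ± 0.10 SE, edgeR adjusted p = 0.0292). The groups did not overlap, and control 3 was near the other controls. The call was kept without control 3 (adjusted p = 0.0171 by edgeR) and lost without any of the other 5 libraries, at adjusted p-values from 0.097 to 0.143 with log2 fold changes from -0.67 to -0.61. With all 6 libraries it was also lost with limma on log2(FPKM + 0.1), at an adjusted p of 0.0706. Its partner subunit Psme2 was at 39.7 ± 3.97 CPM in KO and 46.3 ± 2.97 CPM in control (SD, n = 3 libraries each, log2 fold change -0.22, adjusted p = 0.299 by edgeR). The loading complex genes Pdia3, a disulphide isomerase, and Tapbp, tapasin, had log2 fold changes of 0.56 and 0.23 (adjusted p = 0.174 and 0.436 by edgeR).

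The other class I heavy chain list gave 0 risers and 0 fallers among 13 genes tested (median -0.03), 3 of its 16 genes being too low. H2-Q7, of the Qa-2 family, had a log2 fold change of -0.50, the lipid-presenting Cd1d1 of -0.63 and Hfe, an iron regulator with a class I fold, of -0.35 (adjusted p = 0.333, 0.568 and 0.128 by edgeR). Cd1d1 was highest in control 3, at 19.9 CPM, against 3.83 to 10.2 CPM in KO and 5.001 and 5.30 CPM in the other control libraries. H2-Ke6, listed here by its symbol, is another name of the hydroxysteroid dehydrogenase gene Hsd17b8 and no heavy chain, and it stood at 18.9 ± 2.68 CPM in KO and 33.9 ± 5.66 CPM in control (SD, n = 3 libraries each, log2 fold change -0.84, adjusted p = 0.0539 by edgeR).

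The interferon gamma axis, known to induce both classes, gave 0 risers and 0 fallers among 15 genes tested (median log2 fold change 0.15). Ifng itself had 0, 0 and 3 reads in KO, against 0 reads in each control library, where up to 3 reads would be within what a count of 0 allows. The receptor chain genes went opposite ways, Ifngr1 with a log2 fold change of 0.45 and Ifngr2 of -0.55 (adjusted p = 0.133 and 0.169 by edgeR). Irf8, a transcription factor of myeloid and B cells, was at 27.6, 37.7 and 29.3 CPM in KO, against 11.3, 16.5 and 39.1 CPM in control (log2 fold change 0.50, adjusted p = 0.509 by edgeR), high in control 3 like the class II genes. The GTPase gene Irgm1 had a log2 fold change of 0.40 (adjusted p = 0.207 by edgeR). Without control 3, Ifngr1, Irf8 and Irgm1 rose and Ifngr2 fell, while 24.6% of all genes passed in either direction.

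Genes that lie between H2-K1 and H2-D1 on chromosome 17 were read as neighbours of the 10. The interval from 33996012 to 35267497 held 100 genes of the table, of which 67 were tested, 7 of them among the 10. Of the other 60, 1 rose and 0 fell (median log2 fold change -0.06), and control 3 was the highest library for 20. The gene that rose was Ddah2, a dimethylarginine hydrolase gene, at 40.1, 40.5 and 40.8 CPM in KO, against 27.9, 29.4 and 26.5 CPM in control (log2 fold change 0.53 ± 0.10 SE, edgeR adjusted p = 0.0442). It passed without control 3 (adjusted p = 0.025 by edgeR) and not without any of the other 5 libraries, at adjusted p-values from 0.117 to 0.172. With all 6 libraries it missed the threshold with DESeq2's size factors in edgeR (adjusted p = 0.0502), without a filter on low counts (0.0527), with limma on log2(FPKM + 0.1) (0.0531) and with the most-read transcript (0.102).

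The genes with library profiles most like those of the antigen presentation genes were named by distance. For each of 11407 genes averaging 5 CPM or more, the root mean square distance of its centred log2(CPM + 1) values over the 6 libraries was taken to the mean profile of H2-Aa, H2-Ab1, H2-Eb1 and Cd74. The closest were Tlr1, a receptor for bacterial lipopeptides, at 0.110, the RNA-binding protein gene Rbm47 at 0.227, Cd180, a Toll-like receptor homologue of B cells and macrophages, at 0.240, the parvin gene Parvg at 0.248 and Naip6, of the NLR family, at 0.250, against a median of 0.916 over all genes ranked. Tlr1 was at 6.39, 19.0 and 11.9 CPM in KO, against 2.40, 3.56 and 16.6 CPM in control, the order of libraries seen for H2-Aa. For the profile of H2-K1, H2-D1 and B2m the closest was Csk, a kinase that inhibits Src family kinases, at 0.0534. Next came the nuclear body gene Sp100 at 0.0559 and Arhgef1 at 0.0606. The membrane scaffold gene Mpp1 followed at 0.067 and the Ras GTPase activator gene Rasa3 at 0.0683, against a median of 0.463. All genes were read from the same 6 libraries, which differed in depth and in their cell type markers, so these distances are a description.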

How the data were processed

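Stranded libraries were made from total RNA of remote left ventricle, per the labels' protocols. The submitters' processing notes name Bowtie2, HISAT2 and mm10 but no version and no role. How reads were counted, and whether by strand, the sources used here do not say. The authors deposited a read count and an FPKM value per library for each of 36780 transcripts. The deposited FPKM lay between 0.962 and 0.988 times that recomputed from counts, length and library total. The columns starting with C were given to control, after the initial of its genotype label, and those starting with KO to the knockout.

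Counts were summed per gene symbol, and coordinates are those of the table. The test was edgeR 4.0.16 in R 4.3.3 (quasi-likelihood, TMM, filterByExpr, Benjamini-Hochberg adjustment over 14466 genes, adjusted p under 0.05), checked on simulated counts. Depth ran from 22377348 to 33086384 reads per library. Replicate libraries differed beyond counting noise, with a median chi-square per gene from 3.81 to 17.4, so all 6 were kept. Alternatives were other scalings, no filter, DESeq2 1.42.0, limma 3.58.1 on log2(FPKM + 1) and log2(FPKM + 0.1), the most-read transcript of each gene, a block for the library number, and leaving out libraries.

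The 10 genes and the gene lists were chosen with earlier results of these data known. Named beside them were up to 4 genes of each pathway list with the largest log2 fold change at a mean of at least 5 CPM, genes of those lists past the test, the most abundant marker of each list, the 5 genes closest in profile to each class, and Nmrk2. Myl7, Myl4, Sln, Bmp10, Ptprc, Postn, Gsn, Ddah2 and H2-Ea-ps were chosen outside this rule, after their values were seen. So were Cd163, Lyve1, Folr2, Adgre1, C1qb and Fcgr1. Ifng was also named outside this rule. Of the listed genes, 3 symbols were not analysed here.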

Additional observations from a re-analysis of the deposited data

How the results depend on the processing

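With all 6 libraries, 9 other settings gave 0 of the 10 genes past the test, with log2 fold changes from -0.02 to 1.11 and adjusted p-values from 0.336 to 0.992. H2-K1 turned to -0.0153 with DESeq2's size factors in edgeR and to -0.0153 with DESeq2 itself. The median of all genes was 0.13 with log2(FPKM + 0.1) and 0.11 with library totals. The number of genes called, 535 with the main settings, was 2468 with DESeq2 and 172 with the most-read transcript. Between libraries of the same number the correlations of deviations were 0.307, -0.330 and -0.352. These few values of mixed sign cannot decide whether the numbers pair the libraries. The fit with a replicate block called 6 genes and 0 of the 10, and neither Psme1 nor Ddah2 (adjusted p = 0.152 and 0.184 by edgeR). Leaving out 1 library gave 3 (without KO 3) to 3628 genes (without control 3) and 0 to 8 of the 10. In these fits the log2 fold change ranged from -0.37 to 1.71 for Ciita, from -0.20 to 0.55 for H2-K1 and from -0.046 to 0.61 for H2-D1, each below 0 without KO 2, control 1 or control 2. Without both KO 2 and control 3 there were 2538 genes and 5 of the 10, and without both KO 1 and control 3 there were 2121 genes and 7 of the 10, both chosen after seeing the data. Over 170 values of single genes, 139 kept direction and side of the threshold, 20 newly passed and 11 changed sign. Depth limits little here, since the lowest gene of the 10 had 87 reads in a library, and the spread between libraries sets the precision.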
